A study of Mus musculus with 10 samples.

Results

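A set of 10 genes that mark blood endothelium or carry VEGF and angiopoietin signals were followed in RNA of cardiomyocytes taken from infarcted hearts. The genes are Pecam1, Cdh5, Vwf, Kdr, Flt1, Tek, Tie1, Vegfa, Fabp4 and Aqp1, and they were chosen by name, each being the row of the count table whose Ensembl identifier carries that symbol in GENCODE M21. All 10 were found among the 51789 genes listed, each under 1 identifier. The study compared 5 NLC-MI libraries, from non-transgenic littermates, with 5 TgGRK5-MI libraries, from mice with a GRK5 transgene expressed in cardiomyocytes alone, 1 library per replicate. Every mouse had a permanent ligation of the left coronary artery, and cardiomyocytes were isolated 4 days later. There were no sham libraries. The labels do not name the promoter of the transgene, nor the age or strain of the mice. The paper gives an age range and both sexes for its infarcted mice of these genotypes, but not library by library.

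Endothelial cells line every vessel of the heart, and cardiomyocytes lie beside a dense net of capillaries. VEGF-A, which cardiomyocytes themselves make, binds KDR (VEGFR2), the main signalling receptor, and FLT1 (VEGFR1), which binds VEGF-A more tightly and can act as a decoy in a soluble form. TEK (TIE2) is the receptor of the angiopoietins, and TIE1 is its partner receptor. Apart from Vegfa, the genes are used to recognise endothelial cells, and all were detected in these cardiomyocyte isolates. In RNA of a whole isolate, fewer endothelial cells and less RNA per endothelial cell cannot be told apart.

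The data show the same picture for all 10 genes. Each was well counted in every library, the lowest single value being 279 counts for Vwf, and none passed the test of a difference between TgGRK5-MI and NLC-MI. Kdr had the lowest p, with group means ± SD of 197 ± 32.1 CPM for NLC-MI and 166 ± 31.1 CPM for TgGRK5-MI (n = 5 each). CPM are counts scaled to a common library size with TMM factors. Pecam1 and Cdh5 covered a 2.68-fold and a 2.89-fold range over the 10 libraries and moved together across them.

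Totals ran from 7968779 to 23381527 counts per library, and 3 libraries were shallow: NLC-MI replicate 3, TgGRK5-MI replicate 4 and TgGRK5-MI replicate 3. Grk5 was at 46.5 to 73.1 CPM in NLC-MI and at 552 to 1700 CPM in TgGRK5-MI, which matched the labels in every library. The summed CPM of 8 cardiomyocyte genes was 51324 to 131579 in NLC-MI and 56106 to 112290 in TgGRK5-MI. NLC-MI replicate 3 stood apart in red blood cell RNA, with 191 CPM of Hba-a2 against 3.99 to 25.1 CPM in the other 9 libraries.

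Promoter sequence is shown for the receptors and the ligand whose start sites were placed alike by RefSeq and GENCODE. The part of these sequences in the RNA levels was not tested. RefSeq (GRCm38.p6) held a promoter for 6 of the 10 genes, Kdr, Flt1, Tek, Tie1, Vegfa and Aqp1, and for 4 of them the start site lay within 50 bases of the GENCODE gene start. The 100 bases just upstream of the start site, 5′ to 3′ on the gene's strand, are given with GGAA, the core of the motif bound by ETS factors such as ERG and FLI1, in capitals in either orientation (GGAA or TTCC).
Kdr, chr5:75978456-75978555, reverse strand: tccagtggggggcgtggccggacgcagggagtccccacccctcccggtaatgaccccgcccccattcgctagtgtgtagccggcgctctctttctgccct
Flt1, chr5:147726012-147726111, reverse strand: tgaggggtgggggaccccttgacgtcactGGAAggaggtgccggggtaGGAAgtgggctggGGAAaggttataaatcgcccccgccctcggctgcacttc
Tek, chr4:94739189-94739288, forward strand: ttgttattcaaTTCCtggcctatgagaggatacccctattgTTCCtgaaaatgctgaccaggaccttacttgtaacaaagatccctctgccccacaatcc
Vegfa, chr17:46032378-46032477, reverse strand: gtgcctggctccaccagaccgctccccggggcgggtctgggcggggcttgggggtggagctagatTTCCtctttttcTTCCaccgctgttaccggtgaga
The Flt1 window held 3 matches of GGAA, the Tek and Vegfa windows 2 each and the Kdr window 0, where 66.8% of 32851 RefSeq promoter windows of this length held at least 1. ACGTG, 1 form of the core of the hypoxia response element, was searched on both strands. It was found in 0 of these 4 windows and in 8.09% of all windows. The other form, GCGTG, was not searched, and the Kdr window holds it. TATAAA, the TATA box, was searched on both strands and was found in the Flt1 window alone of these 4, and in 5.56% of all windows. In these windows no match of one motif overlapped a match of another. A match of so short a motif is a description of the letters, and 100 bases are a small piece of a promoter.

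Kdr and Flt1 encode the VEGF receptors. Kdr (chromosome 5, 75932827 to 75978458, reverse strand, 29 merged exons) was at 178, 176, 252, 198 and 181 CPM in NLC-MI replicates 1 to 5 and at 130, 160, 145, 204 and 192 CPM in TgGRK5-MI replicates 1 to 5. In 3 TgGRK5-MI libraries it was below every NLC-MI library, and the other two lay inside the NLC-MI range. The fold change, TgGRK5-MI over NLC-MI, was 0.844 with a 95% interval of 0.656 to 1.09 (edgeR quasi-likelihood p = 0.168, adjusted p = 1.00, exact permutation p = 0.159). The permutation test was two-sided and used every way to split the libraries 5 against 5, so that its smallest p is 0.00794. Without NLC-MI replicate 3, the library with the highest Kdr, the log2 fold change went from -0.24 to -0.14.

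Flt1 (chromosome 5, 147561604 to 147726011, reverse strand, 33 merged exons) was at 105, 103, 174, 138 and 122 CPM in NLC-MI and at 78.3, 88.4, 108, 161 and 127 CPM in TgGRK5-MI. Its highest value in each group was in a shallow library, NLC-MI replicate 3 and TgGRK5-MI replicate 4, and the groups overlapped. The fold change was 0.878 (95% interval 0.633 to 1.22), with p = 0.405 from edgeR and p = 0.397 from the exact permutation test. The counts add up all transcripts of a gene, so soluble and membrane forms of FLT1 were not separated. The ratio of Kdr to Flt1 counts was 1.43 to 1.72 in NLC-MI and 1.27 to 1.81 in TgGRK5-MI, and these ranges overlapped as well.

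Tek and Tie1 were the steadiest receptors in NLC-MI. Tek (chromosome 4, 94739289 to 94874976, forward strand) was at 53.3, 44.0, 56.5, 52.4 and 44.8 CPM in NLC-MI and at 40.1, 50.7, 39.2, 60.9 and 55.7 CPM in TgGRK5-MI. Tie1 (chromosome 4, 118471191 to 118490061, reverse strand) was at 130, 120, 113, 116 and 98.8 CPM in NLC-MI and at 75.9, 130, 92.8, 117 and 133 CPM in TgGRK5-MI. For both genes the TgGRK5-MI libraries reached above and below the NLC-MI range. The fold change of Tek was 0.982 (95% interval 0.777 to 1.24, edgeR p = 0.871, exact permutation p = 0.778). That of Tie1 was 0.949 (95% interval 0.735 to 1.23, edgeR p = 0.664, exact permutation p = 0.595). Changes beyond 1.5-fold in either direction lay outside the 95% intervals of Tek and Tie1, as measured, for the spread between these libraries.

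Pecam1 encodes CD31 at endothelial contacts, Cdh5 encodes VE-cadherin of the adherens junction, and Vwf encodes von Willebrand factor, which endothelial cells store in Weibel-Palade bodies. Pecam1 (chromosome 11, 106654217 to 106750628, reverse strand) was at 260, 220, 366, 261 and 164 CPM in NLC-MI and at 170, 232, 228, 441 and 313 CPM in TgGRK5-MI. Cdh5 (chromosome 8, 104101625 to 104144511, forward strand) was at 311, 282, 495, 303 and 176 CPM in NLC-MI and at 213, 271, 262, 510 and 324 CPM in TgGRK5-MI. Both genes were highest in NLC-MI replicate 3 and TgGRK5-MI replicate 4 and lowest in NLC-MI replicate 5, and in both the groups overlapped over most of their range. The fold change was 1.09 for Pecam1 (95% interval 0.723 to 1.64, edgeR p = 0.656, exact permutation p = 0.762). It was 1.01 for Cdh5 (95% interval 0.652 to 1.56, edgeR p = 0.969, exact permutation p = 0.921).

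Vwf (chromosome 6, 125546774 to 125686679, forward strand, 56 merged exons) was low where Pecam1 and Cdh5 were highest in NLC-MI. It was at 80.0, 85.4, 36.5, 80.2 and 58.8 CPM in NLC-MI and at 65.0, 87.1, 40.1, 57.4 and 61.3 CPM in TgGRK5-MI. Its lowest value in each group was in a shallow library, and NLC-MI replicate 3, the highest NLC-MI library for Pecam1 and Cdh5, was the lowest for Vwf. The ratio of Vwf to Cdh5 counts was 0.0738 in that library and 0.257 to 0.333 in the other 4 NLC-MI libraries. Between groups the fold change was 0.911 (95% interval 0.625 to 1.33, edgeR p = 0.600, exact permutation p = 0.675). Platelets and megakaryocytes hold Pecam1 and Vwf RNA too. Of 5 platelet markers, Gp9 had at most 3 counts in any library, Gp1bb, Itga2b and Ppbp were at 0.393 to 10.5 CPM, and Pf4, which macrophages of some tissues also express, was at 18.3 to 54.0 CPM.

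Fabp4 and Aqp1 mark capillary endothelium, the first as a fatty acid carrier and the second as a water channel. Fabp4 (chromosome 3, 10204088 to 10208576, reverse strand) was at 471, 360, 833, 436 and 570 CPM in NLC-MI and at 256, 401, 528, 765 and 708 CPM in TgGRK5-MI. The fold change was 0.995 with the widest interval of the 10 genes (0.620 to 1.60, edgeR p = 0.981, exact permutation p = 0.881). Adipocytes and some macrophages also express Fabp4. The adipocyte markers Adipoq, Plin1, Cidec, Lep and Cfd had at most 8 counts in any library, and Lep had 0 counts in all 10. The summed CPM of 8 macrophage markers was 656 to 2064 in NLC-MI and 1106 to 2309 in TgGRK5-MI, none of the 8 had an unadjusted p under 0.05, and their part in the Fabp4 values was not tested.

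Aqp1 (chromosome 6, 55336432 to 55348555, forward strand) was at 147, 155, 123, 163 and 206 CPM in NLC-MI and at 131, 211, 200, 149 and 236 CPM in TgGRK5-MI. It had the largest fold change upwards of the 10 genes, 1.17, with a 95% interval of 0.872 to 1.56 (edgeR p = 0.269, exact permutation p = 0.325). Red blood cells make AQP1 as well. The library with the most hemoglobin RNA, NLC-MI replicate 3, had the lowest Aqp1 value of all 10, and the part of red blood cells in the Aqp1 values was not tested.

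Vegfa encodes the ligand and is the 1 gene of the 10 that is not an endothelial marker. Vegfa (chromosome 17, 46016993 to 46032369, reverse strand, 8 merged exons) was at 191, 263, 323, 306 and 286 CPM in NLC-MI and at 302, 172, 349, 220 and 321 CPM in TgGRK5-MI. The group means were 274 ± 51.3 and 273 ± 73.9 CPM (SD, n = 5 each). The fold change was 0.996 (95% interval 0.718 to 1.38, edgeR p = 0.982, exact permutation p = 0.921). The splice forms that differ in matrix binding were not separated by these counts. The ratio of Vegfa to Kdr counts was 1.07 to 1.58 in NLC-MI and 1.08 to 2.40 in TgGRK5-MI, the top values being 2.32 in TgGRK5-MI replicate 1 and 2.40 in TgGRK5-MI replicate 3.

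**Figure D1:**
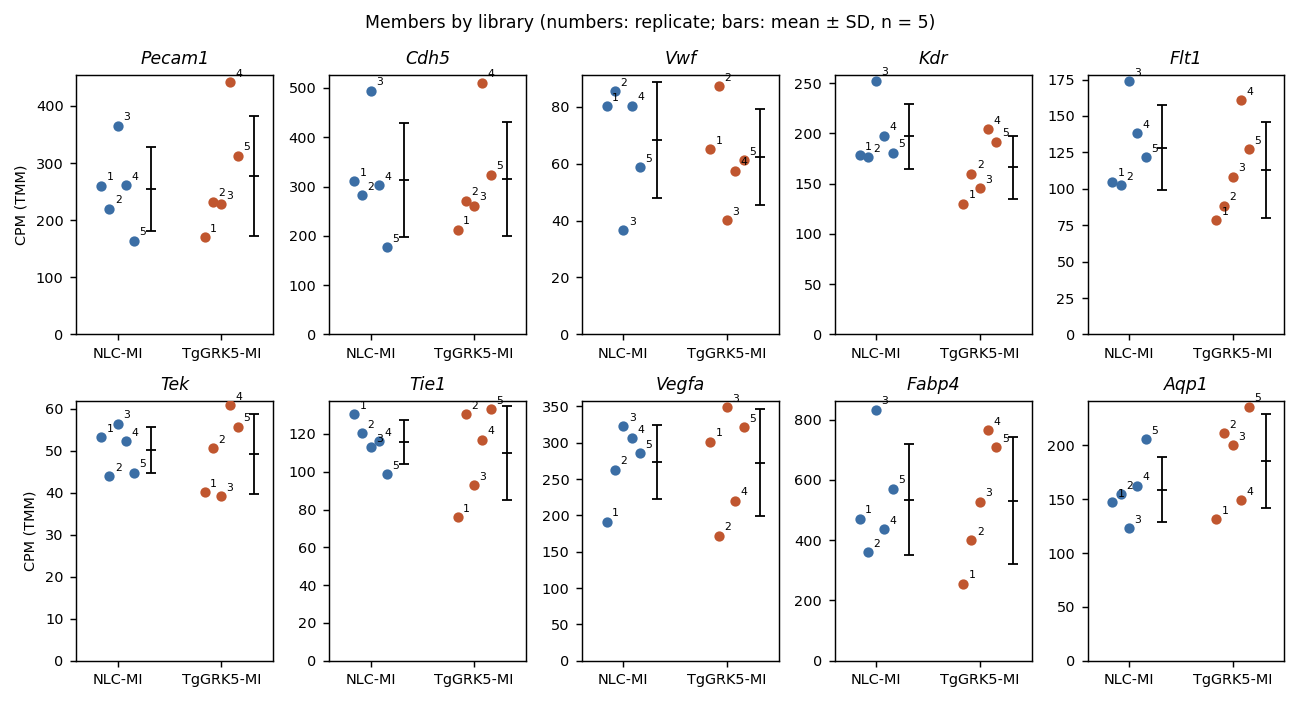
CPM (y axis, from 0) of each of the 10 genes in every library of NLC-MI and TgGRK5-MI (x axis), 1 point per library with its replicate number, and the mean ± SD (n = 5) as a bar. The groups overlap in all 10 panels, and NLC-MI replicate 3 and TgGRK5-MI replicate 4 are the top points for Pecam1, Cdh5, Kdr, Flt1, Tek and Fabp4 in their groups.

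Across the 10 genes, 0 were called at an adjusted p under 0.10 in edgeR's quasi-likelihood test, where 0.0788% of the 15232 genes tested were called. At an unadjusted p under 0.05 edgeR called 0 of the 10, and 3.85% of all genes tested, and DESeq2 and limma-voom also called 0 of the 10 at this p. The groups overlapped for all 10 genes, and 1.00% of genes tested had groups that did not overlap in CPM. All 10 passed the filter on low counts. The fold change was above 1 for 3 genes and below 1 for 7, and the median log2 fold change was -0.017, against 0.0013 over all genes tested. The 95% intervals of all 10 genes lay within a 2-fold change in either direction, and those of 3 genes, Kdr not among them, within a 1.5-fold change. A p that misses the threshold does not show equal levels, and smaller differences than these were not resolved by 5 against 5 mice.

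**Figure D2:**
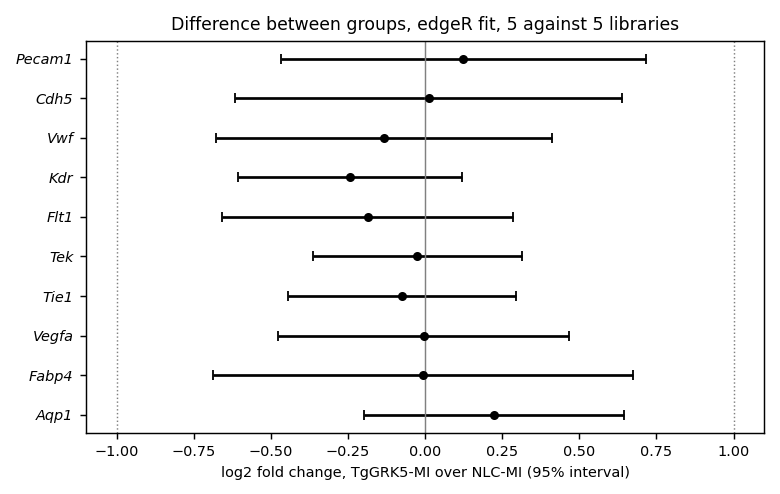
Log2 fold change, TgGRK5-MI over NLC-MI, of each gene from the edgeR fit of 5 against 5 libraries (points) with its 95% interval (bars). The dotted lines mark a 2-fold change, the solid line marks no change, and every interval crosses the solid line and stays between the dotted lines.

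Per length, Fabp4 had the highest level, by a margin that depended on the length used. Levels were compared between genes as RPKM, that is CPM divided by the length in kilobases of the longest coding transcript in the GENCODE basic set. The mean over all 10 libraries was 595 ± 208 RPKM (SD, n = 10) for Fabp4, 79.2 ± 17.4 for Vegfa, 78.8 ± 27.2 for Cdh5, 77.2 ± 25.1 for Pecam1 and 65.5 ± 14.5 for Aqp1. The receptors followed with 30.7 ± 5.73 RPKM for Kdr, 26.6 ± 4.36 for Tie1, 17.5 ± 4.42 for Flt1 and 10.7 ± 1.58 for Tek, and Vwf was lowest with 7.38 ± 2.03. Neighbours in this order were apart by more than their SDs only between Fabp4 and Vegfa, Aqp1 and Kdr, Tie1 and Flt1, and Flt1 and Tek. The order of Vegfa, Cdh5, Pecam1 and Aqp1 among themselves did not hold beyond the spread. With the merged length of all exons in place of 1 transcript, Cdh5 came before Aqp1, Vegfa and Pecam1, Tie1 before Kdr, and Tek before Flt1, while Fabp4 stayed first and Vwf last. The lead of Fabp4 was then much smaller, with 119 ± 41.6 RPKM against 74.9 ± 25.9 for Cdh5 (SD, n = 10 each), and these ranges of mean ± SD overlapped.

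**Figure D3:**
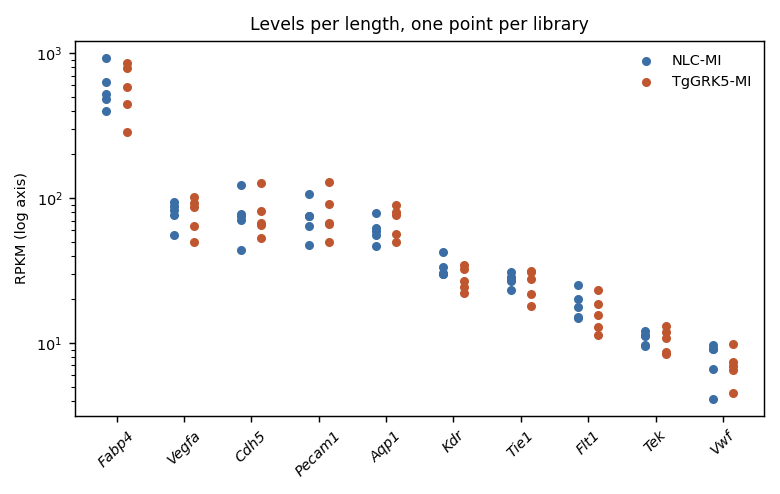
RPKM on a log axis (y) for each gene in order of its mean (x), 1 point per library, with NLC-MI in blue and TgGRK5-MI in orange. Fabp4 lies between 285 and 930 RPKM, above every value of the other genes, and the 2 colours mix within every gene.

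The receptors and the junction genes varied together from library to library, Tie1 least closely. After each group was centred on its own mean of log2 CPM, Pecam1 and Cdh5 had a Pearson r of 0.97 and a Spearman rho of 0.98 over 10 libraries (exact permutation within groups, p = 0.000139 and 0.000278, adjusted p = 0.00625 and 0.0125 over 45 pairs of the 10 genes). Without the 2 libraries farthest from the median of Pecam1, r was 0.94. Kdr and Flt1 had r = 0.91 and rho = 0.79 (exact permutation p = 0.00167 and 0.0233, adjusted p = 0.0169 and 0.117), and r = 0.79 without the 2 libraries farthest from the median of Kdr. Among Pecam1, Cdh5, Kdr, Flt1, Tek and Tie1, r was 0.29 to 0.97 over 15 pairs, and 13 were above 0.5. Tie1 had r from 0.29 (Flt1) to 0.73 (Tek) with the others, none with an adjusted p under 0.05 in the exact permutation test. In the 7 deeper libraries alone the same 15 pairs had r from 0.33 to 0.94 with a median of 0.77. Of all 45 pairs, 10 had an adjusted p under 0.05 for Pearson's r and 4 for Spearman's rho (Pecam1 with Cdh5, Pecam1 with Tek, Cdh5 with Tek, and Flt1 with Fabp4).

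Over all 10 libraries, Vwf, Vegfa and Aqp1 stood outside this block. Vwf had negative r with Flt1 (-0.57), Fabp4 (-0.61) and Vegfa (-0.63), none with an adjusted p under 0.05 in the exact permutation test. The r of Vwf with Pecam1 (-0.28) and Cdh5 (-0.31) was positive in the 7 deeper libraries (0.34 and 0.56). Vegfa had r between -0.10 and 0.27 with Pecam1, Cdh5, Kdr and Flt1, of -0.35 with Tek and of -0.52 with Tie1, again with no adjusted p under 0.05. Aqp1 and Kdr had r = -0.07 over 10 libraries and r = 0.77 in the 7 deeper libraries. In those 7, Aqp1 also had r = 0.71 with Flt1, 0.57 with Tie1, 0.53 with Tek and 0.87 with Fabp4. It was 0.32 with Pecam1 and 0.04 with Cdh5. The r of Aqp1 with Kdr, Flt1 and Tek thus depended on which libraries were kept. Without the 2 libraries farthest from the median of Tek, its r with Aqp1 was -0.45. The r values in the 7 deeper libraries were not tested.

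Part of this movement went with library depth. With log2 total count, group-centred r was -0.83 for Flt1, -0.80 for Fabp4, -0.72 for Kdr, -0.71 for Cdh5, -0.69 for Pecam1 and 0.82 for Vwf, against 0.01 for Tie1. Spearman's rho was -0.84 for Flt1, -0.95 for Fabp4 and 0.83 for Vwf. Over the 10 genes, the exact permutation p of Pearson's r was 0.00674 for Flt1 and 0.00868 for Fabp4 (adjusted p = 0.0434 for both), and no other gene had an adjusted p under 0.05 for Pearson's r. For Spearman's rho, the exact permutation test gave an adjusted p of 0.00625 for Fabp4, 0.0299 for Vwf and 0.0301 for Flt1, and over 0.05 for the other 7 genes. Without the 2 libraries farthest from the median depth r was -0.52 for Flt1, -0.63 for Fabp4 and 0.91 for Vwf. It was then -0.05 for Kdr, 0.16 for Cdh5 and -0.00 for Pecam1, so for Cdh5 and Pecam1 the relation with depth rests on those libraries. For Kdr r was -0.44 in the 7 deeper libraries.

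**Figure D4:**
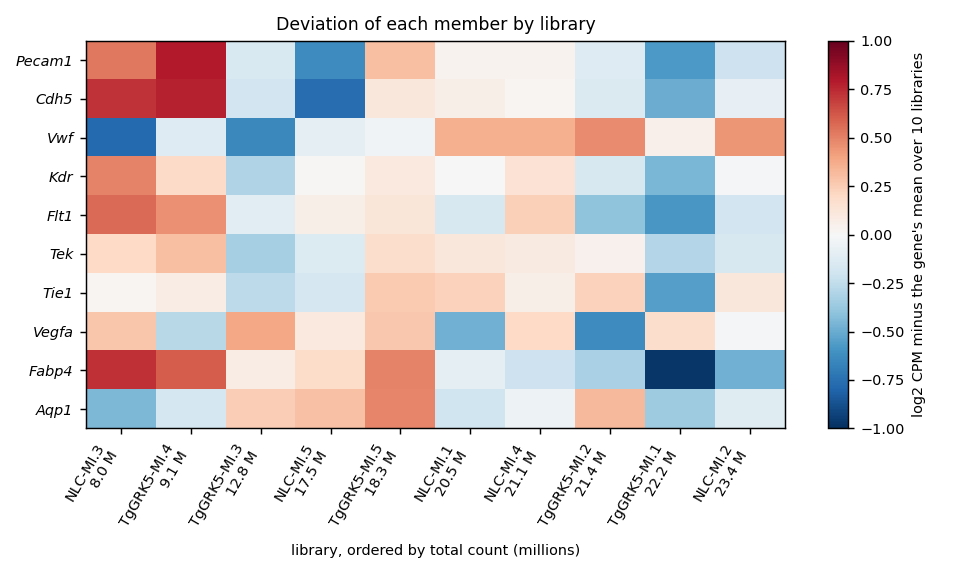
Log2 CPM of each gene minus its mean over the 10 libraries (colour, red above and blue below the mean), with libraries ordered from the shallowest to the deepest by total count (x axis). The 2 shallowest libraries, NLC-MI replicate 3 and TgGRK5-MI replicate 4, are red for Pecam1, Cdh5, Kdr, Flt1, Tek and Fabp4, and NLC-MI replicate 3 is blue for Vwf and Aqp1.

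These 2 libraries were from different groups. Endothelial genes that were high in the shallow libraries tended to have lower GC content, with exceptions. Over 32 endothelial genes, 9 of the 10 genes (Vegfa left out) and 23 other general endothelial markers, the GC content of the transcript and the mean log2 CPM in the 3 shallow minus the 7 other libraries had r = -0.62 and rho = -0.62. This r is across genes, which are not independent replicates. By library, r with each gene's deviation from its group mean was -0.63 in NLC-MI replicate 3, -0.61 in TgGRK5-MI replicate 4 and -0.19 in TgGRK5-MI replicate 3. Fabp4 (40.3% GC) was 0.67 higher on the log2 scale in the shallow libraries, Cdh5 (52.2% GC) 0.62 higher and Pecam1 (50.2% GC) 0.56 higher. Vwf (56.5% GC) was at -0.74, and Tie1 (57.6% GC) at -0.08. Against the trend, Ramp2 (60.1% GC) was at 0.57, Sox18 (60.9% GC) at 0.27 and Clec14a (44.6% GC) at -0.27, genes named after their values were seen. The part of base composition or depth in the levels of single genes was not tested.

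**Figure D5:**
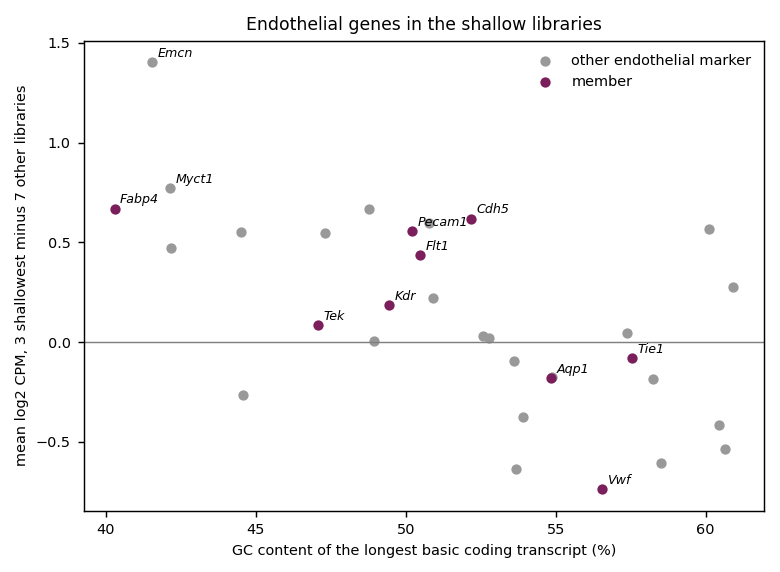
GC content in percent of the longest basic coding transcript (x) against the mean log2 CPM of the 3 shallowest minus the 7 other libraries (y) for 32 endothelial genes, 9 of the 10 genes in purple and other general endothelial markers in grey. Points fall from upper left to lower right (r = -0.62 across genes), with Emcn at 1.40 highest and Vwf at -0.74 lowest.

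With depth in the model, again 0 of the 10 genes passed an unadjusted p under 0.05 in edgeR. With log2 total count as a covariate, an alternative chosen after the data were seen, the log2 fold change of Kdr was -0.27 (SE 0.13). Its edgeR p there was 0.0647 (adjusted p = 0.812), the lowest p of any of the 10 genes in any setting. In the 7 deeper libraries alone the log2 fold change of Kdr was -0.20 (SE 0.17).

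Other general endothelial markers were read beside the 10 genes. Of 23 such markers 0 passed an unadjusted p under 0.05 in edgeR, with a median log2 fold change of 0.01. Over all genes tested, 3.85% passed this p. The most abundant per length were Cd34, a sialomucin (log2 fold change 0.09, SE 0.21), Egfl7, a secreted vessel factor (-0.16, SE 0.24), and Eng, a TGF-beta co-receptor (-0.05, SE 0.17). None passed among 8 capillary genes, led by Cd36, Fabp5 and Cav1, 7 artery genes, led by Gja4, Efnb2 and Fbln5, 5 vein genes, led by Ephb4, Vcam1 and Nr2f2, and 5 endocardial genes, led by Cgnl1, Nfatc1 and Cytl1. Cardiomyocytes express Cd36 and Prox1 too. Summed CPM of the 23 general markers was 1110 to 1751 in NLC-MI and 1082 to 2002 in TgGRK5-MI.

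Of 5 lymphatic markers 1 was higher at an unadjusted p under 0.05, which 3.85% of all genes tested passed in either direction. Lyve1, a hyaluronan receptor of lymphatic vessels that resident macrophages also carry, was at 8.37, 6.84, 7.59, 7.41 and 6.87 CPM in NLC-MI and at 13.3, 13.3, 11.0, 18.6 and 9.83 CPM in TgGRK5-MI. Every TgGRK5-MI library was above every NLC-MI library, and 1.00% of all genes tested had groups that did not overlap. The log2 fold change was 0.83 (SE 0.19), with p = 0.000926 and adjusted p = 0.403 from edgeR and an exact permutation p of 0.00794, the smallest that test can give, so it was not called after adjustment over all genes. The edgeR p stayed under 0.05 in all 19 alternative settings, with log2 fold changes from 0.68 to 0.92. The other lymphatic markers, Prox1, Pdpn, Mmrn1 and Reln, had edgeR p-values from 0.129 to 0.884, Prox1 having a log2 fold change of -0.39 (SE 0.42) and Pdpn one of 0.48 (SE 0.29).

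Around VEGF-A, 1 of 7 other ligands and receptors was lower at an unadjusted p under 0.05 and 0 were higher. Among all genes tested, 3.85% passed this p in either direction. Nrp1, the co-receptor that strengthens VEGF-A binding to KDR, was at 112, 114, 137, 140 and 97.5 CPM in NLC-MI and at 94.5, 105, 91.8, 94.2 and 88.5 CPM in TgGRK5-MI. The log2 fold change of Nrp1 was -0.34 (SE 0.13, edgeR p = 0.0263, adjusted p = 1.00, exact permutation p = 0.0159), and the groups overlapped. The edgeR p went over 0.05 without NLC-MI replicate 3 (log2 fold change -0.29), without NLC-MI replicate 4 (-0.28), without TgGRK5-MI replicate 5 (-0.32), with the replicate block (-0.33) and in the 7 deeper libraries (-0.28). Vegfb, a ligand of FLT1 that muscle makes in large amounts, had the highest level of these genes per length at 175 RPKM, with a log2 fold change of 0.18 (SE 0.31), and Nrp2 one of -0.15 (SE 0.24). None of 10 genes that respond to VEGF-A in endothelium passed, Rcan1 (0.07, SE 0.30), Pdgfb (-0.22, SE 0.18) and Aplnr (-0.01, SE 0.22) being the most abundant per length.

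Around TEK, 1 of 6 genes was lower at an unadjusted p under 0.05 and 0 were higher, where 3.85% of all genes tested passed. Angpt1, the ligand that activates TEK, was at 33.8, 21.7, 46.5, 17.3 and 45.03 CPM in NLC-MI and at 30.2, 13.9, 21.99, 14.3 and 13.3 CPM in TgGRK5-MI, and the groups overlapped. The log2 fold change of Angpt1 was -0.81 (SE 0.32, edgeR p = 0.0272, adjusted p = 1.00, exact permutation p = 0.0794). The edgeR p was over 0.05 in 6 of 19 alternatives, without NLC-MI replicate 3 (log2 fold change -0.65) or 5 (-0.67), without TgGRK5-MI replicate 2 (-0.71), 4 (-0.72) or 5 (-0.70), and in the 7 deeper libraries (-0.63). Ptprb, the phosphatase that restrains TEK, had a log2 fold change of -0.23 (SE 0.14), and Foxo1, a factor held in check by TEK signalling, one of -0.21 (SE 0.27).

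Of 19 genes of the hypoxia response and of Vegfa control, 1 was lower at an unadjusted p under 0.05 and 0 were higher. The share over all genes tested was 3.85%, in either direction. Ddit4, a stress-induced inhibitor of mTORC1, had a log2 fold change of -0.64 (SE 0.29, edgeR p = 0.0479, exact permutation p = 0.0476), and 9 of 19 alternatives took the edgeR p over 0.05. Bnip3, Egln1 and Higd1a, the most abundant per length, had log2 fold changes of 0.11 (SE 0.17), -0.19 (SE 0.27) and 0.03 (SE 0.18). Of 7 relatives of Fabp4 and Aqp1, 0 passed. Fabp3, the carrier of heart muscle, was at 4313 RPKM with a log2 fold change of 0.40 (SE 0.35), Fabp5 had one of 0.19 (SE 0.33) and Aqp7 one of -0.00 (SE 0.30).

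Markers of other cells were counted beside these values. For all genes tested, 3.85% had an unadjusted p under 0.05 in edgeR, in either direction. Among 8 cardiomyocyte genes 1 was lower at an unadjusted p under 0.05, Ryr2, the calcium release channel (log2 fold change -0.93, SE 0.30, edgeR p = 0.00902, adjusted p = 0.968, exact permutation p = 0.0476). For Ryr2, 0 of 19 alternatives took the edgeR p over 0.05, with log2 fold changes from -1.12 to -0.81. Actc1, Mb and Tnnt2 had log2 fold changes of 0.12 (SE 0.45), 0.38 (SE 0.47) and -0.05 (SE 0.42). Among 8 mural cell genes 2 were lower, Abcc9 (-0.67, SE 0.27, edgeR p = 0.0314, exact permutation p = 0.119) and Cspg4 (-0.62, SE 0.28, edgeR p = 0.0497, exact permutation p = 0.167), which 4 and 10 of 19 alternatives took over 0.05, and Acta2 (0.51, SE 0.33), Rgs5 (0.02, SE 0.23) and Pdgfrb (-0.07, SE 0.28) were the most abundant per length. ABCC9 is also a channel subunit of cardiomyocytes. None passed among 7 fibroblast genes, led by Col1a1, Col1a2 and Postn, 8 macrophage genes, led by Lyz2, C1qb and C1qa, 4 platelet genes tested, led by Pf4, and 4 red blood cell genes tested, led by Hba-a2, Hbb-bs and Hba-a1. The fibroblast sum varied most, from 2720 to 16324 CPM in NLC-MI and from 2999 to 16264 CPM in TgGRK5-MI.

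The genes most like the endothelial block were in part endothelial. Likeness was the Pearson r, over 10 libraries with groups centred, with the mean of Pecam1, Cdh5, Kdr, Flt1, Tek and Tie1, among 14113 genes with a mean of at least 1 CPM. The 10 genes with the highest r, from 0.94 to 0.97, were Cdc45, Rpl22l1, Tox2, Cdkn2aipnl, Adgrl4, Erg, L1cam, Nts, Tex10 and St8sia6. Adgrl4, an adhesion receptor of endothelium, and Erg, an ETS factor of endothelium, were 2 of the 23 general endothelial markers, both with r = 0.96. The 23 markers had a median r of 0.72, from -0.11 to 0.96, and all genes a median of 0.02. The 5 genes most like Vegfa were Pacsin2 (r = 0.95), Casq2, the calcium store protein of heart muscle (r = 0.93), Abhd5 (r = 0.93), Hspa4l (r = 0.93) and Wdcp (r = 0.93), and 0 of them was in an endothelial list. All points share the same 10 libraries and their depths, so these r are a description.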

How the data were processed

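RNA of isolated cardiomyocytes was measured in 10 libraries, 5 NLC-MI and 5 TgGRK5-MI. The authors deposited whole-number counts per Ensembl gene, not normalized. The submitters' processing notes name Bowtie2, RSEM 1.2.31, DESeq2 and mm10, so the counts may be rounded estimates; strand setting and annotation version are not given in the sources used here. Groups came from the labels and column names, and 0 columns were left out.

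Symbols, exons and lengths came from GENCODE M21 (GRCm38), which held 51596 of 51789 identifiers. No member shares exon bases with another annotated gene. In R 4.3.3 with edgeR 4.0.16, counts were scaled with TMM, filtered with filterByExpr (15232 of 28506 genes with a count) and compared by a quasi-likelihood F test (settings legacy and robust both FALSE), with Benjamini-Hochberg adjustment over all genes tested. Log2 CPM used a prior count of 2. Single values were also compared with the exact two-sided permutation test. Correlations were tested by exact permutation within groups (14400 placements), tests added after the data were seen. Alternatives used DESeq2 1.42.0 and limma 3.58.1 (voom), other scalings and filters, each library left out, and the replicate block. The fits were tested on simulated data.

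The text names all members, genes of each other list with an unadjusted p under 0.05 and up to 3 with the highest RPKM, and genes most like the members; other names were added where a marker bears on a member. Members and lists were chosen with earlier results of these data known. A count of 3, the floor of the depth, was 0.121 to 0.393 CPM. Reads carry no molecular identifiers. Each library is labelled as a mouse, and p-values measure the spread between these libraries, in which mouse and preparation cannot be told apart.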

Additional observations from a re-analysis of the deposited data

Results flagged for a closer look

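Each of the 10 genes was examined for a library far from the others of its group, 20 groups in all, of which chance alone would mark about 1, and 1 was marked. Kdr in NLC-MI replicate 3 was at 252 CPM, and the other 4 NLC-MI libraries were at 176 to 198 CPM, so the gap to the nearest library was 0.718 of the range of the group. This library also had the lowest total count, 7968779.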

How the results depend on the processing

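None of the 10 genes passed an unadjusted p under 0.05 or an adjusted p under 0.10 in any of 19 settings. Of 190 log2 fold changes, 164 kept their direction and 26 changed sign. Cdh5 changed sign to -0.0026 with RLE size factors, -0.0025 with DESeq2, -0.055 with log2 total count as a covariate and -3.1e-05 in the 7 libraries with the most counts, Vegfa to 0.011 in those 7 libraries, and Fabp4 to 0.010 with library size alone. Leaving out each replicate in turn gave -0.23 to 0.24 for Cdh5, -0.12 to 0.12 for Vegfa, -0.17 to 0.21 for Fabp4, -0.11 to 0.29 for Pecam1, -0.11 to 0.036 for Tek and -0.15 to 0.022 for Tie1. The signs of these 6 genes are therefore not set by the data. Kdr (-0.33 to -0.14), Flt1 (-0.35 to -0.05), Vwf (-0.29 to -0.02) and Aqp1 (0.12 to 0.33) kept theirs in all 19 settings. These settings reuse the same 10 libraries, so a kept sign is not separate evidence. The intervals of Kdr, Flt1, Vwf and Aqp1 in the main fit included no change, so their signs are not set either.

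Over all genes tested, the 12 genes at an adjusted p under 0.10 became 69 with DESeq2, 20 with the depth covariate, 6 in the 7 deeper libraries and 3 to 10 with 1 replicate left out. Leaving out NLC-MI replicate 1 or 2 gave 3, and leaving out NLC-MI replicate 4 or TgGRK5-MI replicate 1, 3, 4 or 5 gave 4. The 586 genes at an unadjusted p under 0.05 became 1163 with no filter, 947 with the depth covariate and 457 to 1069 with 1 replicate left out, the last without NLC-MI replicate 3. The causes were not tested. The depth covariate, the 7 libraries and the merged exon length were chosen after seeing the data.

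Replicate numbers are shared by the labels of both groups, but the same number stands for different mice, and a pairing was not established: the correlations of the 5 same-numbered pairs were 0.0717, 0.662, 0.381, -0.341 and 0.0848 (mean 0.172, against -0.0274 for other numbers), 2 of them over 0.1, and 2 of 10 libraries correlated best with their own number. With the replicate block, 8 genes had an adjusted p under 0.10 and 604 an unadjusted p under 0.05, among them 0 of the 10 genes. The 10 genes had at least 279 counts in each library, so low counts were not a limit, while levels of several of them went with total count. A prior count of 0.5 changed no call of the permutation test.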
